A study of Homo sapiens with 10 samples.

Results

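The genes described here are the 2 plasminogen activators PLAU and PLAT, the urokinase receptor PLAUR, and 2 serpins of the system, SERPINE2 and SERPINB2. They were chosen by name, with earlier results of these data known. All 5 had a row among the 57736 genes of the count table and passed the filter on low counts. Read counts came from RNA sequencing of IMR90, a diploid fibroblast line from human fetal lung, with 5 groups of 2 samples each. The groups ask what RAS-driven senescence, the loss of METTL3 and its return do to these cells. The METTL3 protein is the enzyme that places the m6A mark on RNA, in a complex with METTL14.

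The mutant knock-in group held senescent cells with METTL3 knockout and a lentivirus carrying mutant METTL3. The wild type knock-in group held the same cells with wild type METTL3. The METTL3 knockout group held senescent cells treated with siRNA against METTL3, which the titles call a knockout, and the senescent control group held senescent cells with control siRNA. Senescent cells had received a retrovirus expressing RAS, and control cells an empty retrovirus and control siRNA. Cells were seeded at day 4 after the retrovirus, treated with siRNA on successive days, and harvested 48 hours after the last step. The protocol text names METTL14 where titles and columns name METTL3, and the sources used here do not say which METTL3 mutant it was. Column names of the knockout group carry a tag, vec, that is missing from those of senescent control, so an empty lentivirus and the loss of METTL3 cannot be told apart between these groups. All groups come from 1 cell line.

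Plasminogen activators are secreted serine proteases that cut plasminogen into plasmin, the protease that dissolves fibrin and opens the matrix around cells. Urokinase, made from PLAU, acts mostly on the cell surface, where the receptor encoded by PLAUR holds it, while tissue-type activator, made from PLAT, works best on fibrin. Serpins stop these proteases by forming a covalent complex with them. SERPINE2 (protease nexin 1) blocks urokinase, tissue-type activator, plasmin and thrombin near the cell surface, and SERPINB2 (plasminogen activator inhibitor type 2) blocks mainly urokinase and stays largely inside the cell. Urokinase, its receptor and serpins are known as secreted or shed products of senescent fibroblasts.

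RefSeq promoter windows, of 250 bases before and 50 after a transcript start, were used for 4 of the 5 genes. The 250 bases upstream of the start are printed for 3 of them, as examples. They are given 5′ to 3′ on the gene's own strand in the RefSeq build GRCh38.p14, which is a later build than the one behind the counts. Capitals mark matches to the motifs searched. The PLAU window is chr10:73910882-73911131 (plus strand), the later of its 2 listed starts. The PLAUR window is chr19:43670170-43670419 (minus strand), and the SERPINB2 window is chr18:63887455-63887704 (plus strand).
PLAU: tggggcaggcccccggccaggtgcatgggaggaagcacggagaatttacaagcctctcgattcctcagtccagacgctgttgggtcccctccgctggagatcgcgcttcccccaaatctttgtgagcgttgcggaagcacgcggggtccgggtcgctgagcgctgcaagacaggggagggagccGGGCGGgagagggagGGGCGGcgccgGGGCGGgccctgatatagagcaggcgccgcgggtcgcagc
PLAUR: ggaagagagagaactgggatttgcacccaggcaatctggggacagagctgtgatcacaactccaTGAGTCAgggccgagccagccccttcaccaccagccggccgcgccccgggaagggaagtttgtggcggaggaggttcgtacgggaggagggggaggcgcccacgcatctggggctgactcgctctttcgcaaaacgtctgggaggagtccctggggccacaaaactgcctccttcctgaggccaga
SERPINB2: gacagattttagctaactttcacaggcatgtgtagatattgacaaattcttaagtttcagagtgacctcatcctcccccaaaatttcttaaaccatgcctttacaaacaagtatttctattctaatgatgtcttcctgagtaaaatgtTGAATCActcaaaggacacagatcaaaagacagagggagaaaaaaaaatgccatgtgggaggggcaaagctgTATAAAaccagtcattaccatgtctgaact
The motifs searched on both strands of the whole windows were the AP-1 site (TGANTCA), the CRE core (TGACG), the TATA box (TATAAA), the GC box (GGGCGG) and the NF-kB site. SERPINB2 held an AP-1 match at bases -102 to -96 from the start and a TATA box at -30 to -25. PLAUR held an AP-1 match at -186 to -180, and PLAU held 3 GC boxes between -66 and -35 and none of the other motifs. The earlier PLAU window had no match, and the 2 SERPINE2 windows, on chromosome 2, held 1 and 2 GC boxes upstream of the start. Windows of SERPINE2 and SERPINB2 also held a CRE core after the start. Of all 35116 windows, 7.71% held an AP-1 match, 24.6% a CRE core, 11.5% a TATA box, 45.0% a GC box and 11.3% an NF-kB match. These matches describe letters in a window, and binding was not measured.

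Total counts ran from 16293975 to 23570266 per sample. METTL3, the targeted gene, averaged 130941 CPM (counts scaled to a common library total) ± 23806 (SD) in the mutant knock-in, 58255 ± 184 in the wild type knock-in, 26.0 ± 4.02 in the knockout, 52.3 ± 7.09 in senescent control and 77.0 ± 6.20 in control (n = 2 each), so its RNA was lowered and not lost in the knockout. The transgene took 11.3% and 14.2% of all counts in the mutant knock-in and 5.87% and 5.86% in the wild type knock-in. In each group all 7 fibroblast markers had counts. Their summed level was 4930 to 5600 CPM in the mutant knock-in, 7560 to 8060 in the wild type knock-in, 9730 to 10300 in the knockout, 9330 to 10000 in senescent control and 13600 to 16900 in control. Not every fibroblast marker followed the sum. LUM averaged 53.9 CPM in the mutant knock-in, 75.6 in the wild type knock-in, 31.5 in the knockout, 20.2 in senescent control and 26.7 in control. COL1A2 averaged 1802 CPM in the wild type knock-in and 1587 in senescent control. Summed epithelial, endothelial and leukocyte markers stayed at or under 29.3 CPM in every sample, with KRT5, CLDN5 and CD3E at 0. Others had counts and differed between groups. Epithelial KRT19 averaged 20.2 CPM in control, 9.92 in the knockout and 1.62 to 2.91 in the other groups. Endothelial TEK averaged 18.1 in senescent control to 27.3 in the knockout, and leukocyte PTPRC 0 in control to 4.41 in the mutant knock-in. The 2 control samples differed most, with a chi-square of 34.1 per gene against 5.08 to 7.56 within the other groups. The part of these differences between groups and libraries in the results below was not tested.

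**Figure D1:**
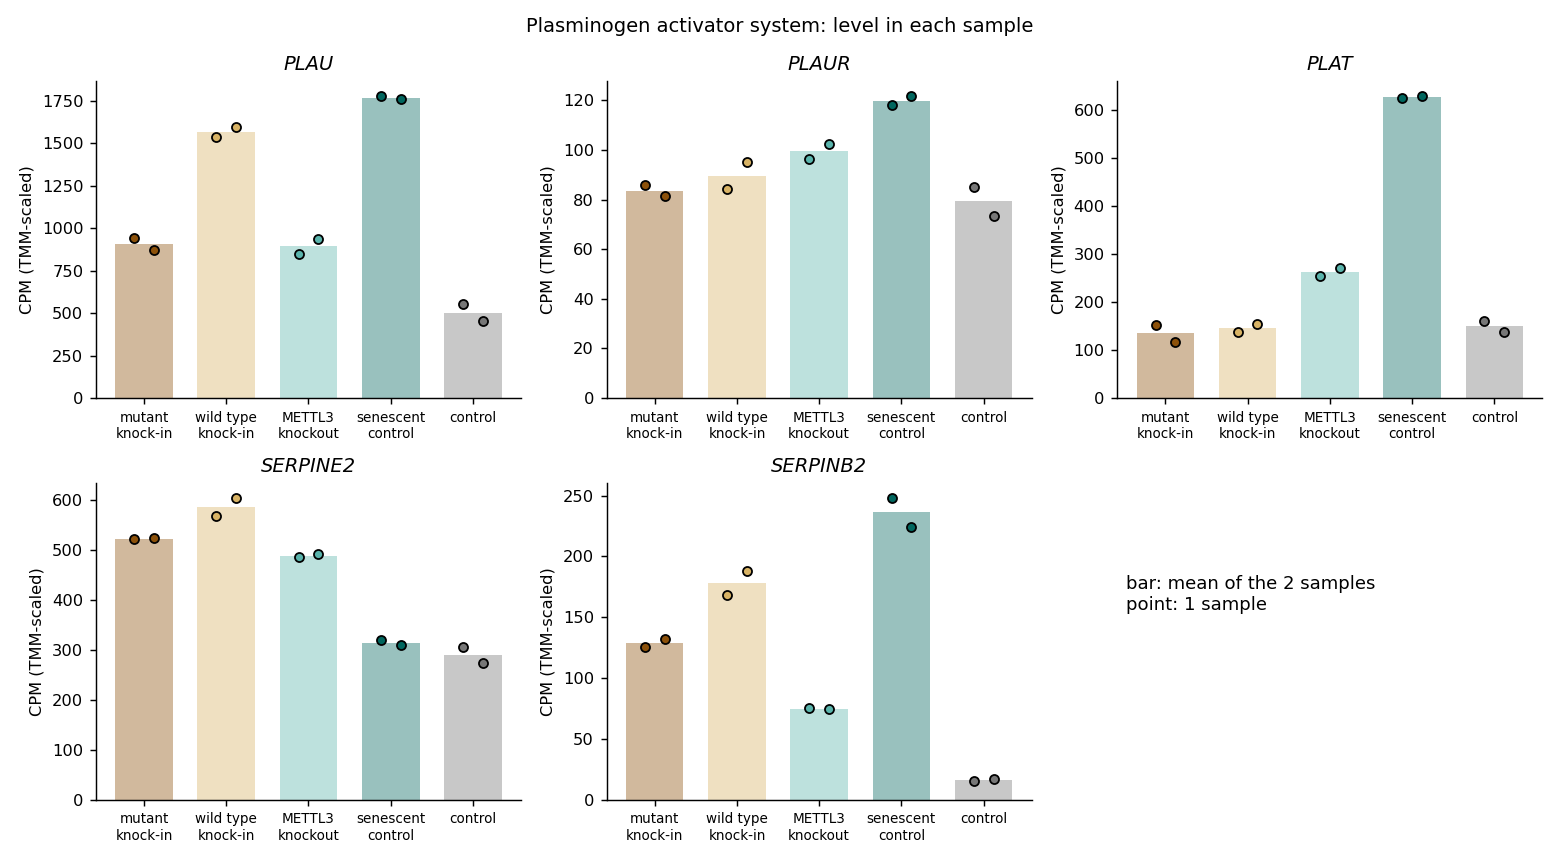
Level of each gene in CPM, scaled by TMM, in the 2 samples of each group (points) with the group mean (bar, from 0), mutant knock-in on the left and control on the right. PLAU, PLAUR, PLAT and SERPINB2 stand highest in senescent control, while SERPINE2 stands highest in the wild type knock-in, at 569 and 605 CPM.

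In senescent control against control, 4 of the 5 genes rose and none fell, where 19.7% of the 16760 genes tested rose and 25.3% fell. The words rose, fell and called stand for an adjusted p under 0.05 in edgeR's quasi-likelihood test. In the knockout against senescent control, 3 fell and 1 rose, beside 8.62% and 7.17% of all genes. In the wild type knock-in against the knockout, 3 rose and 1 fell, beside 18.5% and 14.8%. In the mutant knock-in against the knockout, 1 rose and 1 fell, which is near the 24.1% and 24.3% of all genes. In the mutant against the wild type knock-in, 2 fell and none rose, beside 7.39% and 5.16%. The share of all genes called between the knock-ins varied when 1 library was left out, which leaves 1 sample in its group. The cause was not tested, and some of the counts follow. The count was 2103 with all samples, 123 without mutant replicate 2, 152 without wild type replicate 2, 680 without mutant replicate 1 and 4918 without control replicate 1. For the knockout against senescent control, where 2646 genes were called, leaving out 1 library gave 1198 to 4819.

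The median log2 fold change over the 5 genes was 1.81 in senescent control over control, beside -0.03 over all tested genes. It was -0.99 in the knockout over senescent control, 0.26 in the wild type knock-in over the knockout, 0.02 in the mutant knock-in over the knockout and -0.17 in the mutant over the wild type knock-in, while the median over all tested genes lay between -0.003 and 0.021 in these 4 comparisons. Comparisons that share a group are not independent of each other, and all of the RAS groups can also be set against control. There all 5 genes rose in the knockout, where 19.7% of all genes rose and 26.7% fell. In the wild type knock-in 3 of 5 rose and none fell, beside 29.7% and 30.2%, and the same numbers held for the mutant knock-in, beside 33.7% and 34.4%. Against senescent control, 1 rose and 3 fell in the wild type knock-in (20.8% and 19.1%), and 1 rose and 4 fell in the mutant knock-in (27.0% and 26.3%). The samples are bulk RNA, so fewer cells that express a gene and less RNA per cell cannot be told apart.

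**Figure D2:**
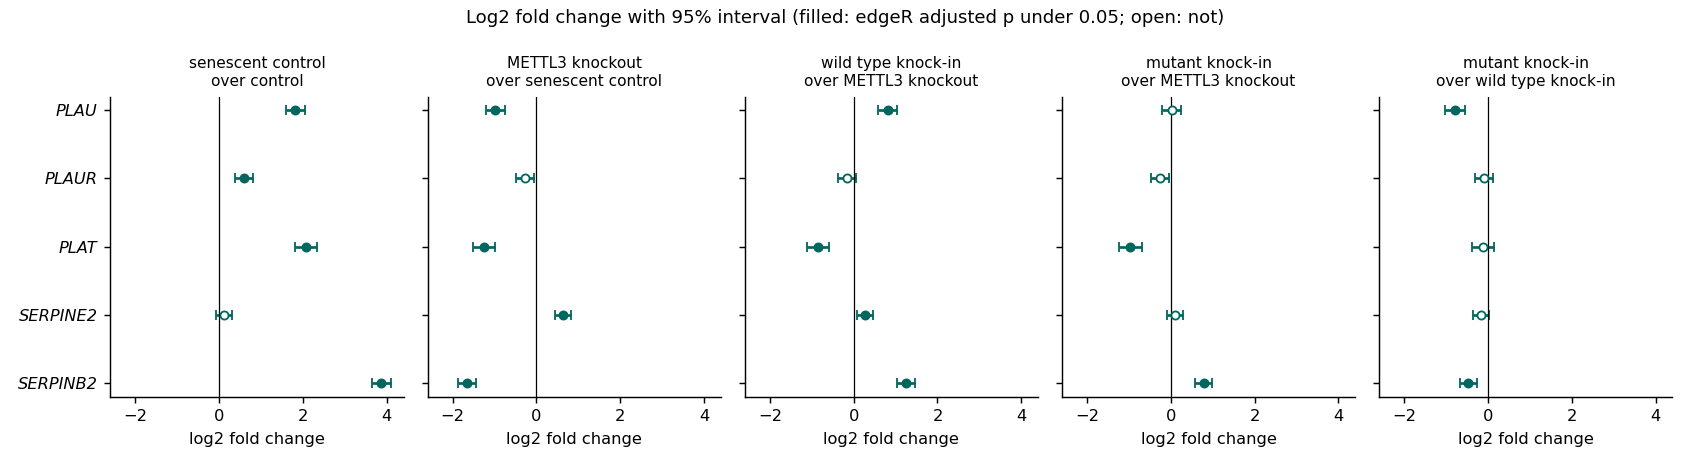
Log2 fold change of each gene with its 95% interval in 5 comparisons (filled points passed the edgeR test), as the group named first over the group named second. The points of PLAU, PLAT and SERPINB2 lie right of 0 in senescent control over control (1.81, 2.07 and 3.87) and left of 0 in the knockout over senescent control (-0.99, -1.25 and -1.66).

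PLAU (ENSG00000122861), the urokinase gene, was higher with wild type METTL3 than in the knockout or with the mutant form. It stood at 944 and 869 CPM in the mutant knock-in, 1536 and 1596 in the wild type knock-in, 849 and 938 in the knockout, 1778 and 1761 in senescent control and 553 and 453 in control. Both wild type knock-in samples were above every knockout and mutant knock-in sample, and both control samples were below all others. The mutant knock-in and the knockout overlapped.

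PLAU rose in senescent control over control by 1.81 on the log2 scale, with a standard error (SE) of 0.11 (edgeR quasi-likelihood adjusted p = 7.23e-08). It fell in the knockout against senescent control by 0.99 (SE 0.10, edgeR adjusted p = 5.9e-05), which leaves 0.505 of the senescent control level. With wild type METTL3 it rose over the knockout by 0.81 (SE 0.10, edgeR adjusted p = 0.000113). The mutant knock-in differed from the knockout by 0.02, with a 95% interval of -0.20 to 0.25 and an edgeR adjusted p of 0.883. Set directly against the wild type knock-in, the mutant knock-in was lower in PLAU by a log2 change of -0.79 (SE 0.10, edgeR adjusted p = 0.00159). METTL3 RNA itself was 2.25-fold higher in the mutant than in the wild type knock-in, and its part in that difference was not tested.

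Against senescent control, PLAU had a log2 change of -0.18 in the wild type knock-in, with a 95% interval of -0.40 to 0.05 (edgeR adjusted p = 0.201). This value passed the threshold when the 2 groups were fitted alone (edgeR adjusted p = 0.0411) and without control replicate 1 or 2 (edgeR adjusted p = 0.0101 and 0.0102). All 3 groups with METTL3 siRNA kept more PLAU RNA than control. The log2 change over control was 0.85 in the mutant knock-in (edgeR adjusted p = 1.64e-05), 1.64 in the wild type knock-in (1.27e-07) and 0.83 in the knockout (7.08e-05). An opposite-strand gene, C10orf55, shares 771 exon bases with PLAU in the reference annotation. Its 380 counts over all samples come to 0.176% of the 215403 counts of PLAU, and the sources used here do not say whether reads were counted by strand.

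PLAT (ENSG00000104368), the gene of tissue-type plasminogen activator, moved with PLAU under RAS and the siRNA, but not in the wild type knock-in. It stood at 151 and 118 CPM in the mutant knock-in, 138 and 154 in the wild type knock-in, 254 and 271 in the knockout, 625 and 629 in senescent control and 160.3 and 139 in control. The senescent control samples were far above all others, the knockout samples came next, and the other 3 groups overlapped.

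PLAT rose in senescent control over control by 2.07 (SE 0.13, edgeR adjusted p = 8.82e-08) and fell in the knockout against senescent control by 1.25 (SE 0.12, edgeR adjusted p = 3.04e-05). It was lower again in the wild type knock-in than in the knockout, with a log2 change of -0.84 (SE 0.12, edgeR adjusted p = 0.000255), the opposite sign to PLAU in the same samples. In the mutant knock-in the change against the knockout was -0.97 (SE 0.12, edgeR adjusted p = 5.33e-05). The 2 knock-ins differed from each other by -0.12, mutant over wild type, with an interval of -0.39 to 0.15 (edgeR adjusted p = 0.551). Against the knockout, PLAT thus fell with both forms of METTL3, while PLAU rose with the wild type form and did not pass the test with the mutant form. Both knock-ins received a lentivirus. The sources used here do not say whether the knockout, whose columns carry the tag vec, received an empty one. The part of a lentivirus in these values was not tested.

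Relative to senescent control, PLAT stood at 0.215 of its level in the mutant knock-in and at 0.233 in the wild type knock-in (edgeR adjusted p = 1.04e-07 and 3.3e-07). The knock-ins were not distinguished from control, at log2 changes of -0.15 for the mutant (interval -0.42 to 0.11, edgeR adjusted p = 0.285) and -0.03 for the wild type (interval -0.29 to 0.23, edgeR adjusted p = 0.842). Without mutant replicate 1, the mutant value became -0.36 and passed the threshold (edgeR adjusted p = 0.0359). The knockout was higher than control by 0.81 (SE 0.12, edgeR adjusted p = 0.000238).

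PLAUR (ENSG00000011422), the gene of the receptor that holds urokinase at the cell surface, moved least of the genes that rose with senescence. It stood at 85.8 and 81.3 CPM in the mutant knock-in, 84.4 and 95.03 in the wild type knock-in, 96.6 and 102.5 in the knockout, 118 and 122 in senescent control and 85.0 and 73.6 in control. Both senescent control samples were above all others, the knockout samples came next, and the mutant knock-in, wild type knock-in and control samples overlapped.

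PLAUR rose in senescent control over control by 0.60 (SE 0.10, edgeR adjusted p = 0.000411). Its log2 change in the knockout against senescent control was -0.27, with an interval of -0.48 to -0.06 (edgeR adjusted p = 0.0869). That value passed when the 2 groups were fitted alone (edgeR adjusted p = 0.000281) and without control replicate 1 or 2 (0.00328 and 0.00335). Against senescent control, PLAUR fell in the mutant knock-in by 0.52 (SE 0.10, edgeR adjusted p = 0.000788) and in the wild type knock-in by 0.42 (SE 0.10, edgeR adjusted p = 0.00495). The wild type call was lost without wild type replicate 1 (edgeR adjusted p = 0.0602). The knockout was higher than control by 0.33 (SE 0.10, edgeR adjusted p = 0.0168), a call lost without knockout replicate 2 (edgeR adjusted p = 0.0925).

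Neither knock-in passed the test for PLAUR against the knockout. The log2 change was -0.25 for the mutant (interval -0.47 to -0.04, edgeR adjusted p = 0.0517) and -0.15 for the wild type (interval -0.36 to 0.07, edgeR adjusted p = 0.275). The mutant value passed in 6 of 17 alternatives, among them without control replicate 1 or 2 (edgeR adjusted p = 0.00129 and 0.00135) and without wild type replicate 1 or 2 (0.0352 and 0.0353). The wild type value passed without control replicate 1 or 2 (0.0445 and 0.0455). Mutant over wild type it was -0.10, with an interval of -0.32 to 0.11 (edgeR adjusted p = 0.528). Between neighbours in the order of PLAUR levels over the 5 groups, none of the 4 steps passed the test, although senescent control was separated from the 2 knock-ins and from control.

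SERPINE2 (ENSG00000135919), the gene of protease nexin 1, was lowest, among the senescent groups, in senescent control, where the activators were highest. It stood at 523 and 524 CPM in the mutant knock-in, 569 and 605 in the wild type knock-in, 487 and 492 in the knockout, 320.3 and 309.8 in senescent control and 306 and 274 in control. Every sample with METTL3 siRNA was above every sample without it, and the 3 groups with METTL3 siRNA did not overlap each other.

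SERPINE2 did not pass the test in senescent control over control, with a log2 change of 0.12 and an interval of -0.07 to 0.31 (edgeR adjusted p = 0.279). Without control replicate 1 it did (edgeR adjusted p = 0.0221). It rose in the knockout against senescent control by 0.64 (SE 0.09, edgeR adjusted p = 0.000369), the only one of the 5 genes to do so. The wild type knock-in was above the knockout by 0.26 (SE 0.09, edgeR adjusted p = 0.0338), but that call was lost in 10 of 17 alternatives, among them each one that left out a library of the 4 senescent groups. Its adjusted p ran from 0.00116 to 0.267 over the 17. The mutant knock-in changed by 0.10 against the knockout (interval -0.09 to 0.29, edgeR adjusted p = 0.375) and by -0.17 (interval -0.35 to 0.02) against the wild type knock-in (edgeR adjusted p = 0.226), a value that passed without control replicate 1 or 2 (0.0398 and 0.0403).

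Over control, SERPINE2 rose by 0.85 in the mutant knock-in (edgeR adjusted p = 3.39e-06), by 1.02 in the wild type knock-in (1.21e-06) and by 0.76 in the knockout (3.54e-05). Over senescent control it rose by 0.73 in the mutant knock-in (2.31e-05) and by 0.90 in the wild type knock-in (1.1e-05). The wild type knock-in thus had more SERPINE2 RNA than senescent control and, for PLAU, a level the test did not separate from it.

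SERPINB2 (ENSG00000197632), the gene of plasminogen activator inhibitor type 2, changed most of the 5 genes with senescence. It stood at 126 and 132 CPM in the mutant knock-in, 168 and 188 in the wild type knock-in, 75.1 and 74.9 in the knockout, 248 and 224 in senescent control and 15.5 and 16.8 in control. No 2 groups overlapped, and the control samples, with 355 and 374 counts, were lowest by a wide margin.

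SERPINB2 rose in senescent control over control by 3.87 (SE 0.11, edgeR adjusted p = 2.21e-10), a 14.6-fold difference. It fell in the knockout against senescent control by 1.66 (SE 0.10, edgeR adjusted p = 4.69e-07), yet the knockout stayed 4.64-fold above control (edgeR adjusted p = 5.48e-08). Both forms of METTL3 were followed by more SERPINB2 RNA than in the knockout. The log2 change was 0.78 for the mutant (SE 0.09, edgeR adjusted p = 3.79e-05) and 1.25 for the wild type (SE 0.09, edgeR adjusted p = 2.63e-06).

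The mutant knock-in was lower in SERPINB2 than the wild type knock-in, with a log2 change of -0.47 (SE 0.09, edgeR adjusted p = 0.0098). That call was lost without mutant replicate 1 (edgeR adjusted p = 0.0749), mutant replicate 2 (0.110) or wild type replicate 2 (0.150). Against senescent control SERPINB2 fell in the mutant knock-in by 0.87 (SE 0.09, edgeR adjusted p = 1.07e-05) and in the wild type knock-in by 0.41 (SE 0.09, edgeR adjusted p = 0.00409). The wild type call was lost without senescent control replicate 1 (0.0574) or wild type replicate 1 (0.0655). Its level was 7.99-fold that of control in the mutant knock-in and 11.0-fold in the wild type knock-in (edgeR adjusted p = 1.04e-09 and 4.2e-10).

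Levels were compared between genes as CPM per kilobase of the longest coding transcript in the reference annotation. PLAU was the most abundant of the 5 in every group, at 341 CPM per kilobase ± 19.9 in the mutant knock-in, 589 ± 15.9 in the wild type knock-in, 336 ± 23.5 in the knockout, 666 ± 4.67 in senescent control and 189 ± 26.8 in control (SD, n = 2 each). SERPINE2 came second in each group except senescent control, where PLAT came second at 232 ± 1.19 and SERPINE2 came next at 123 ± 2.91. SERPINB2 was last in control at 7.49 ± 0.398 and last in the knockout at 34.8 ± 0.0688, while in senescent control it reached 110 ± 7.79. The first and second places were the same with the length of all exons together, and places lower down exchanged in 3 groups.

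The balance of activators and serpins was described by ratios of CPM per kilobase within each sample, with no test. PLAU to SERPINE2 was 1.67 ± 0.101 in the mutant knock-in, 2.58 ± 0.0438 in the wild type knock-in, 1.76 ± 0.110 in the knockout, 5.43 ± 0.0908 in senescent control and 1.67 ± 0.108 in control. Senescent control thus stood apart, and the mutant knock-in, the knockout and control overlapped. PLAT to SERPINE2 was 0.244 ± 0.0438 in the mutant knock-in, 0.236 ± 0.00826 in the wild type knock-in, 0.510 ± 0.0186 in the knockout, 1.89 ± 0.0546 in senescent control and 0.489 ± 0.0124 in control. The 2 knock-ins had the lowest value of this ratio.

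PLAU to PLAT, urokinase over tissue-type activator, was 6.94 ± 0.833 in the mutant knock-in, 10.9 ± 0.567 in the wild type knock-in, 3.46 ± 0.0896 in the knockout, 2.87 ± 0.0349 in senescent control and 3.42 ± 0.134 in control. The 2 knock-ins exceeded all other samples in it. SERPINB2 to SERPINE2, the 2 serpins, was 0.294 ± 0.0102 in the mutant knock-in, 0.362 ± 0.0125 in the wild type knock-in, 0.183 ± 0.00176 in the knockout, 0.894 ± 0.0423 in senescent control and 0.0667 ± 0.00871 in control. This ratio had no overlap between groups. PLAU to PLAUR, ligand over receptor, was 6.57 ± 0.136 in the mutant knock-in, 10.6 ± 0.605 in the wild type knock-in, 5.43 ± 0.151 in the knockout, 8.94 ± 0.249 in senescent control and 3.83 ± 0.154 in control. Both wild type knock-in samples exceeded all others in it.

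**Figure D3:**
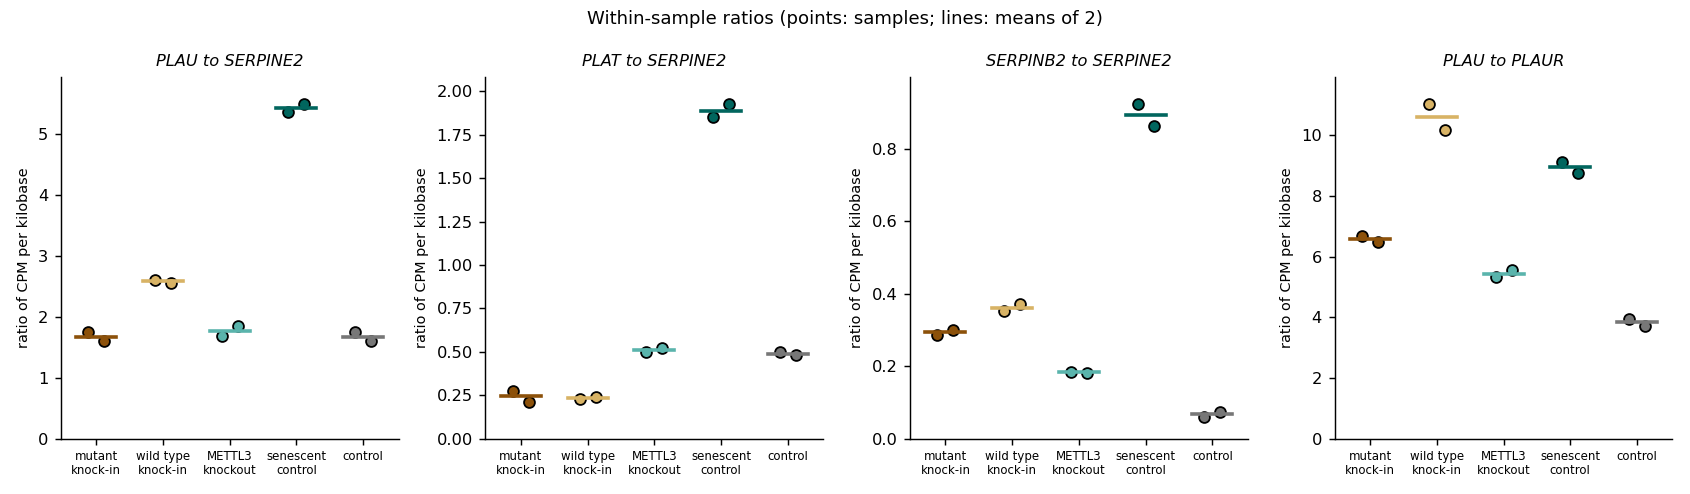
Ratios of CPM per kilobase between genes within each sample, 2 points per group with their mean (line), mutant knock-in on the left and control on the right, with axes from 0. Both ratios to SERPINE2 of the activators peak in senescent control (5.43 for PLAU and 1.89 for PLAT), where SERPINB2 to SERPINE2 also reaches 0.894.

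Other genes of the system were followed in 6 lists, and the members of each are counted by the same test. Of 16 genes of plasminogen, its surface binding and its inhibitors, 10 were tested. In senescent control over control 2 rose and 5 fell, with a median log2 change of -0.26 beside -0.03 over all tested genes, but the 5 became 2 or 3 in 14 of 17 alternatives. Over all tested genes 19.7% rose and 25.3% fell there. In the knockout over senescent control 3 fell and none rose, where 8.62% of all genes fell and 7.17% rose. Without knockout replicate 2 or senescent control replicate 1 this became 1 fall, without control replicate 1 or 2 it gained 1 rise, and with the 2 groups fitted alone it gained 2. Plasminogen itself, PLG, named after its values were seen, had 21 counts over all 10 samples and was not tested. Of the surface receptors for plasminogen, ANXA2 averaged 1022 CPM ± 27.4 in the mutant knock-in, 1431 ± 65.2 in the wild type knock-in, 2102 ± 27.5 in the knockout, 2668 ± 51.0 in senescent control and 3123 ± 157 in control. ANXA2 fell in senescent control against control by 0.23 (edgeR adjusted p = 0.0392), a call lost in 16 of 17 alternatives. ENO1, a glycolytic enzyme that also binds plasminogen at the surface, fell in senescent control against control by 0.41 (edgeR adjusted p = 0.00215) and in the knockout against senescent control by 0.43 (0.005), of which the second call was lost without knockout replicate 2 (0.0705) or senescent control replicate 1 (0.0606).

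Of the serpins in that list, SERPINB8, an inhibitor of furin, was highest in senescent control. It averaged 69.8 CPM ± 0.0339 in the mutant knock-in, 65.5 ± 4.75 in the wild type knock-in, 59.0 ± 0.903 in the knockout, 83.4 ± 0.284 in senescent control and 49.6 ± 2.48 in control. SERPINB8 rose in senescent control over control by 0.75 (edgeR adjusted p = 2.44e-05) and fell in the knockout against senescent control by 0.50 (0.00173). SERPINI1, or neuroserpin, which inhibits tissue-type activator, rose in senescent control over control by 0.89 (edgeR adjusted p = 0.0069), at 4.00 CPM ± 0.164 in senescent control and 2.15 ± 0.567 in control.

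Over all tested genes 19.7% rose and 25.3% fell in senescent control over control, with a median log2 change of -0.03. In the knockout over senescent control 8.62% of all genes fell and 7.17% rose. Of 18 urokinase receptor partners and clearance receptors, 14 were tested. In senescent control over control 6 rose and 2 fell, with a median log2 change of 0.36, and in the knockout over senescent control 1 rose and 3 fell, a count of falls that ran from 0 to 8 over the alternatives. It was 0 without knockout replicate 1 or senescent control replicate 2, 1 without knockout replicate 2 or senescent control replicate 1, and 7 without either control replicate. Integrins are matrix receptors, some of which bind vitronectin or fibronectin beside the urokinase receptor. In senescent control over control, 4 of the 6 tested rose, 1 fell and 1 did not pass, beside 19.7% and 25.3% of all genes. ITGB3 averaged 111 CPM ± 1.78 in senescent control and 38.7 ± 4.03 in control, a rise of 1.52 (edgeR adjusted p = 3.18e-07), and ITGA5 rose by 0.67 (0.000374). ITGB1 rose by 0.72 (edgeR adjusted p = 0.0079), with the 2 control samples at 2135 and 3518 CPM, and that call was lost when the 2 groups were fitted alone (0.0527). LRP1, the endocytic receptor that clears complexes of activators with serpins, averaged 996 CPM ± 26.5 in senescent control and 953 ± 294 in control (log2 change 0.06, edgeR adjusted p = 0.784). That value rests on the control libraries, at 0.44 without control replicate 1 (edgeR adjusted p = 0.000237) and -0.17 without control replicate 2 (0.0916). VLDLR, a related clearance receptor, rose in senescent control over control by 0.51 (edgeR adjusted p = 0.0132), a call lost without senescent control replicate 2 (0.0697). VLDLR fell in the knockout against senescent control by 0.71 (0.00729), a call lost without knockout replicate 1 (0.0752) or senescent control replicate 2 (0.0657).

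Of 14 genes of coagulation start and thrombin receptors, 11 were tested. In senescent control over control 7 rose and 3 fell, with a median of 1.09. In the knockout over senescent control 6 fell and none rose, with a median of -0.48. Over all tested genes, 19.7% rose and 25.3% fell in the first comparison, with a median of -0.03. In the second, 8.62% fell and 7.17% rose, with a median of 0.006. F3, tissue factor, averaged 1069 CPM ± 84.7 in senescent control and 500.4 ± 37.0 in control, a rise of 1.10 (edgeR adjusted p = 2.87e-06). F2RL1, a receptor cut by trypsin-like proteases, averaged 10.4 CPM ± 1.35 in the knockout, 50.4 ± 1.96 in senescent control and 21.5 ± 2.19 in control. It rose in senescent control over control by 1.23 (edgeR adjusted p = 4.92e-06) and fell in the knockout against senescent control by 2.28 (3.77e-07). SERPIND1, a thrombin inhibitor, rose in senescent control over control by 3.67 (1.07e-06) at low levels, with 4.02 CPM ± 0.590 in senescent control and 0.310 ± 0.0677 in control. It fell in the knockout against senescent control by 1.10 (edgeR adjusted p = 0.00576), a call lost without knockout replicate 2 (0.0708) or senescent control replicate 1 (0.0749). THBS1, a matrix glycoprotein that activates latent TGF-beta, fell in senescent control against control by 1.55 (1.5e-06), at 2266 CPM ± 353 in senescent control and 6618 ± 826 in control. F2R, the main thrombin receptor, fell in the knockout against senescent control by 0.48 (edgeR adjusted p = 0.00294), a call lost without knockout replicate 1 (0.0565) or senescent control replicate 2 (0.0616). Its fall in senescent control against control, by 0.23 (0.0493), was lost in 16 of 17 alternatives.

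**Figure D4:**
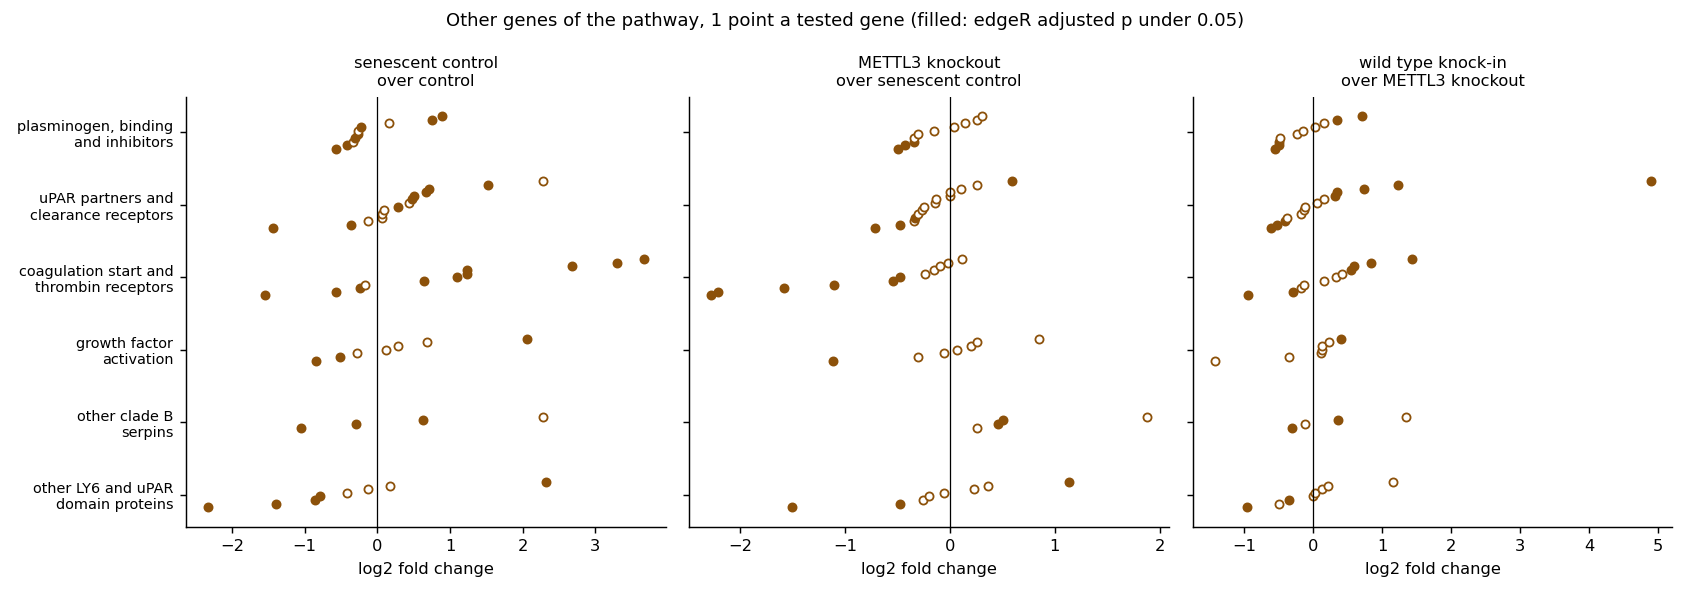
Log2 fold changes of the tested genes of 6 lists, 1 point per gene and filled where it passed the edgeR test, in senescent control over control, the knockout over senescent control and the wild type knock-in over the knockout. In the coagulation list the points lie mostly right of 0 in senescent control over control (median 1.09) and mostly left of 0 in the knockout over senescent control (median -0.48).

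In the wild type knock-in over the knockout, 2 of the 10 tested plasminogen genes rose and 3 fell, 5 of the 14 receptor partners rose and 3 fell, and 4 of the 11 coagulation genes rose and 2 fell, where 18.5% of all genes rose and 14.8% fell. With all samples kept, only 1 plasminogen gene rose under DESeq2, RLE scaling or the replicate block, or with METTL3 left out of the counts. Over the 17 alternatives the plasminogen genes had 0 to 2 rises and 2 to 5 falls, the receptor partners 3 to 5 rises and 1 to 5 falls, and the coagulation genes 3 to 4 rises and 1 to 4 falls. Without knockout replicate 1 no plasminogen gene rose, and 3 receptor partners rose and 1 fell. Without either control replicate 5 plasminogen genes, 5 receptor partners and 4 coagulation genes fell. Leaving out any other library gave 1 rise of a plasminogen gene. Receptor partners had 3 rises without any 1 of knockout replicate 2, mutant replicate 2, the senescent control samples or the wild type samples. Coagulation genes had 1 fall without knockout replicate 2, mutant replicate 1 or wild type replicate 1. HGF, the scatter factor that serine proteases activate, came from a list of 12 genes of growth factor activation, of which 7 were tested. Of these, 1 rose and 2 fell in senescent control over control, beside 19.7% and 25.3% of all genes. In the knockout over senescent control 8.62% of all genes fell and 7.17% rose. None of the 7 tested genes of this list rose there, but 2 did when the 2 groups were fitted alone. HGF averaged 166 CPM ± 10.9 in the mutant knock-in, 234 ± 0.112 in the wild type knock-in, 215 ± 7.32 in the knockout, 467 ± 11.5 in senescent control and 112 ± 21.8 in control. HGF rose in senescent control over control by 2.05 (edgeR adjusted p = 7e-08) and fell in the knockout against senescent control by 1.12 (5.41e-05). It was the 1 gene of its list called lower there, a count that became 2 with RLE scaling, with the 2 groups fitted alone and without control replicate 1 or 2. Its receptor MET had a log2 change of -0.28 in senescent control over control (edgeR adjusted p = 0.156), but it was -0.53 without control replicate 1 (5.32e-06) and 0.09 without control replicate 2 (0.374). With no filter on low counts the MET value passed (0.0222). PRSS23, a secreted serine protease, fell in senescent control against control by 0.51 (0.000437).

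Of 10 other clade B serpins, relatives of SERPINB2, 4 were tested. In senescent control over control 1 of them rose and 2 fell, beside 19.7% and 25.3% of all genes. SERPINB7 rose there by 0.62 (edgeR adjusted p = 0.000279) and rose again in the knockout against senescent control by 0.46 (0.0064), a call lost without knockout replicate 2 (0.0851) or senescent control replicate 1 (0.123). SERPINB9, the granzyme B inhibitor, fell in senescent control against control by 1.05 (edgeR adjusted p = 1.34e-05). SERPINB1, an inhibitor of neutrophil elastase, fell there by 0.29 (0.0236), a call lost in 8 of 17 alternatives, and rose in the knockout against senescent control by 0.51 (0.00301).

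Of 12 other proteins with LY6 and uPAR domains, relatives of PLAUR, 8 were tested. In senescent control over control 1 of them rose and 4 fell, beside 19.7% and 25.3% of all genes. LYPD3, which is itself named for that domain, rose by 2.32 (edgeR adjusted p = 3.59e-06), at 6.02 CPM ± 0.637 in senescent control and 1.19 ± 0.168 in control, and fell in the knockout against senescent control by 1.51 (0.000338). LYPD6 fell in senescent control against control by 2.33 (4.65e-06) and rose in the knockout against senescent control by 1.14 (0.0074), a call lost without knockout replicate 2 (0.0567) or senescent control replicate 1 (0.0872). LYPD1 fell in both comparisons, by 0.79 (5.55e-05) in senescent control and by 0.48 (0.00731) in the knockout, of which the second call was lost without knockout replicate 2 (0.114) or senescent control replicate 2 (0.0805). CD59, which protects cells from complement, and LY6E did not pass in senescent control over control, at log2 changes of -0.13 (edgeR adjusted p = 0.238) and -0.41 (0.134).

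For each of the 5 genes, the 3 genes with the most alike pattern over the 10 samples were taken from 10972 genes by Pearson's r of log2(CPM + 1). The 10 points are 5 groups of 2, so an r mostly repeats the order of the groups. PLAU was most like MLLT11 (r = 0.987), MICA (0.977) and AMPD3 (0.976). MLLT11 stood at 158 CPM ± 8.49 in the mutant knock-in, 215 ± 11.6 in the wild type knock-in, 157 ± 5.06 in the knockout, 238 ± 2.99 in senescent control and 124 ± 2.45 in control. PLAT was most like RAB3D (0.993), ARHGAP22 (0.989) and TSPAN14 (0.979). PLAUR was most like APBA1 (0.988), OTUB2 (0.980) and TSPAN14 (0.9747), so TSPAN14 stood near both.

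SERPINE2 was most like INA (0.994), IGDCC4 (0.981) and HLA-C (0.980). INA, a neuronal intermediate filament gene, stood at 79.4 CPM ± 1.51 in the mutant knock-in, 84.0 ± 4.38 in the wild type knock-in, 71.3 ± 0.00274 in the knockout, 37.0 ± 1.14 in senescent control and 33.4 ± 2.18 in control. SERPINB2 was most like DOCK4 (0.990), CNIH3 (0.986) and KYNU (0.985). KYNU, an enzyme of tryptophan breakdown, stood at 11.8 CPM ± 0.887 in the mutant knock-in, 21.8 ± 0.704 in the wild type knock-in, 8.20 ± 0.239 in the knockout, 39.3 ± 3.22 in senescent control and 1.17 ± 0.113 in control.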

How the data were processed

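RNA was sequenced from 10 samples of IMR90 cells in 5 groups of 2, taken from the sample titles. The authors deposited a table of whole-number read counts per gene with no normalization. Per the submitters' processing notes, the tools were RSEM 1.2.12 and Bowtie2, whose version is not given, and the build was hg19. The annotation, the counting strand and the handling of reads with several matches are not given in the sources. The deposited counts went into edgeR 4.0.16 (R 4.3.3) without change. The filterByExpr filter, set to a minimum count of 10, left 16760 genes, and TMM scaled the libraries. The model had a coefficient for each group, with 5 residual degrees of freedom over all 10 samples. Contrasts used the robust, two-sided quasi-likelihood F test, adjusted over all tested genes by the Benjamini-Hochberg method. Standard errors and 95% intervals come from the log2 fold change and its F statistic, so they rest on a spread estimated over all 10 samples. CPM values were computed from the counts and TMM-scaled totals, as mean ± SD over 2 samples. DESeq2 1.42.0, other scalings, other filters, a replicate block and leaving out each library were alternatives. The procedure was tested on simulated data in which every group had the same spread, which was not so for the samples here. Since no label calls the replicates separate cultures, p-values cover only the spread between samples, which may be technical. The members and lists were chosen with earlier results of these data known. Besides the members and METTL3, genes were named if they were among the 3 highest of a list, had the largest called change of a list in senescent control over control or in the knockout over senescent control, or were among the 3 most like a member in genes of at least 5 CPM. A gene that the naming rule also gives is not reported here, though list counts hold it. Promoter sequences are from RefSeq.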

Additional observations from a re-analysis of the deposited data

How the results depend on the processing

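Each of 50 values of the 5 genes was recomputed under 17 alternatives, which gave 850 values. Of these, 798 kept their direction and their side of the threshold, 17 kept the direction and lost the call, 20 gained a call and 15 turned in sign; 32 of the 50 values were on the same side in all. The values that turned had not been called. PLAU in the mutant knock-in over the knockout became -0.0248 with no filter on low counts and ran from -0.0741 to 0.0616 when 1 library was left out. PLAT in the wild type knock-in over control became 0.0608 with upper-quartile scaling, and PLAUR in the mutant knock-in over control became -0.0030 with no filter. Without 1 library these 2 values ran from -0.1229 to 0.0820 and from -0.0103 to 0.1679. In the mutant over the wild type knock-in, PLAT ran from -0.3242 to 0.0571 and PLAUR from -0.2052 to 0.0080. In senescent control over control, LRP1 ran from -0.173 to 0.4378 and MET from -0.53 to 0.0889. Fitting only the 2 groups compared gave 5108 called genes for the knockout over control (7772 with all samples), 5621 for the knockout over senescent control (2646) and 4078 for the mutant over the wild type knock-in (2103). Without 1 library the counts ran from 5014 to 9129, from 1198 to 4819 and from 123 to 4918 in the same comparisons, from 3390 to 7665 for the wild type knock-in over the knockout (5584) and from 4367 to 8554 for the wild type knock-in over senescent control (6679). The cause was not tested. Upper-quartile scaling gave 3988 higher and 3540 lower genes for the knockout over control (3300 and 4472 with TMM) and 1056 and 773 for the mutant over the wild type knock-in (865 and 1238). It moved the median of all genes to 0.134 in the mutant knock-in over senescent control, 0.139 in the mutant knock-in over control and 0.112 in the wild type knock-in over control. Where a library is left out, its group has 1 sample, which is assumed to vary like the other groups.

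Same-numbered samples of 2 groups deviated together with correlations from -0.168 to 0.11 over 10 pairs of groups. With 2 samples per group, these values cannot say whether same-numbered samples were handled together. With a replicate block 2538 genes were called for the knockout over senescent control and 1923 for the mutant over the wild type knock-in, and no call of the 5 genes changed.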
